A study of Caenorhabditis elegans with 12 samples.

Results

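The annular furrow collagens are the 6 cuticle collagens dpy-2 (T14B4.6), dpy-3 (EGAP7.1), dpy-7 (F46C8.6), dpy-8 (C31H2.2), dpy-9 (T21D12.2) and dpy-10 (T14B4.7) of Caenorhabditis elegans. They were chosen as a known functional group and taken by sequence name, with earlier results of these data already known, and all 6 were found among the 22010 genes of the deposited tables. mRNA of whole L4 animals (the last larval stage) was sequenced in 4 groups of 3 libraries: heat-shocked affl-2(sy975) mutants of strain PS8060, unheated affl-2(sy975) mutants, heat-shocked wild-type N2 and unheated N2. Heated plates of 250 picked animals were sealed with parafilm and held in a 33 °C water bath for 30 min, and unheated plates were sealed in the same way and kept at 20 °C for the same time. affl-2 encodes a homologue of the AF4/FMR2 proteins, which act in transcription elongation, and the design asks how its mutation alters the transcriptional response to heat. The mutant is 1 allele in 1 strain, and the sources used here do not give its lesion. The labels do not tell whether replicates were grown apart, so p-values here reflect the spread among the libraries alone, which may be technical.

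The worm cuticle is a layered extracellular matrix of collagens that the epidermis secretes anew before each molt. Its surface is divided into ring-shaped annuli separated by narrow circumferential furrows. The 6 furrow collagens depend on one another: loss of any of them removes the furrows and gives a short, fat (dumpy) worm. Their mRNAs are known to appear as a wave in each larval stage, ahead of the wave of collagens such as dpy-13 and sqt-1, so the level in a plate of worms moves with the time to the next molt. The labels give the stage as L4 with no hour, and the part of molt timing in the results below was not tested.

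The 6 genes lie at 5 places in the genome (coordinates of build WBcel235). dpy-2 (II:6714292-6715971, plus strand) and dpy-10 (II:6710149-6712227, minus strand) are transcribed away from each other, with 2064 bp between the gene bodies. On the X chromosome stand dpy-3 (X:2144605-2145647), dpy-8 (X:5148804-5150476) and dpy-7 (X:7536467-7537792), all on the minus strand, and dpy-9 is at IV:257403-259204, also on the minus strand. The annotated proteins range from 302 codons in dpy-3, encoded in 2 exons, to 452 codons in dpy-8, encoded in 4. dpy-7 has 318 codons in 2 exons, dpy-2 has 380 and dpy-10 has 356 in 5 exons each, and the longer isoform of dpy-9 has 315 in 4. Of the estimated counts of dpy-10, isoform b took 63.6 to 100% over the 12 libraries and isoform a up to 34.8%, and isoform a of dpy-9 took 84.8 to 100%. A protein-coding gene on the same strand, T14B4.19 (II:6711011-6712931), overlaps the gene body of dpy-10 and is not among the transcripts of the tables. Whether their exons share sequence was not examined, so some reads counted for dpy-10 may come from T14B4.19.

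The libraries held 17.97 to 22.66 M estimated counts each, and 15386 genes, the 6 furrow collagens among them, had enough counts to be tested. affl-2 mRNA itself was lower in the mutant after heat (16.3 to 19.2 CPM in heated affl-2, against 25.2 to 30.0 CPM in heated N2, adjusted p = 0.00544) and without it (15.2 to 19.6 CPM in unheated affl-2, against 20.97 to 25 CPM in unheated N2, adjusted p = 0.0374). CPM are counts scaled to a common library size with TMM factors, and adjusted p-values come from edgeR's quasi-likelihood test with Benjamini-Hochberg adjustment over all 15386 genes, with 0.05 as the threshold. Of all genes tested, 1465 rose and 1849 fell with heat in N2, and 1637 rose and 1663 fell with heat in affl-2. Against N2, 1561 genes were higher and 1473 lower in heated affl-2, and 1029 were higher and 1121 lower in unheated affl-2. These splits depended on the scaling: by library size alone they were 911 and 3487, 930 and 2631, 4868 and 831, and 2737 and 649, in the same order, and the median of all genes then moved by −0.18, −0.14, 0.22 and 0.18 on the log2 scale. Markers of epidermis, muscle, intestine, neurons, germline and pharynx were all detected, as fits whole animals, and a lower level of a gene can mean fewer expressing cells or less RNA per cell, which cannot be told apart here.

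The furrow collagens were scattered widely within each group, and they scattered together. dpy-7, whose promoter is a standard driver of epidermal expression, stood at 15.7, 10.5 and 26.8 CPM in heated affl-2 and 1.21, 0.90 and 11.8 CPM in unheated affl-2 (replicates 1, 2 and 3), against 24.6, 44.6 and 63.4 CPM in heated N2 and 12.9, 74.6 and 18.9 CPM in unheated N2. Replicate 3 was the highest in both mutant groups and in heated N2, while replicate 2 was the highest in unheated N2 and the highest of the whole study. dpy-8, which encodes the longest of the proteins, had 20.0, 10.1 and 24.3 CPM in heated affl-2 and 3.69, 2.94 and 17.2 CPM in unheated affl-2, with 32.3, 47.9 and 76.3 CPM in heated N2 and 26.3, 140.9 and 40.5 CPM in unheated N2. dpy-3, the shortest, had 8.40, 4.58 and 11.6 CPM in heated affl-2 and 0.34, 0.14 and 7.60 CPM in unheated affl-2, against 16.7, 25.5 and 39.4 CPM in heated N2 and 11.1, 52.6 and 14.4 CPM in unheated N2. The first 2 of those unheated mutant values rest on 7 counts (95% exact Poisson interval 2.81 to 14.4) and 3 counts (0.62 to 8.77), intervals that cover counting error only.

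**Figure D1:**
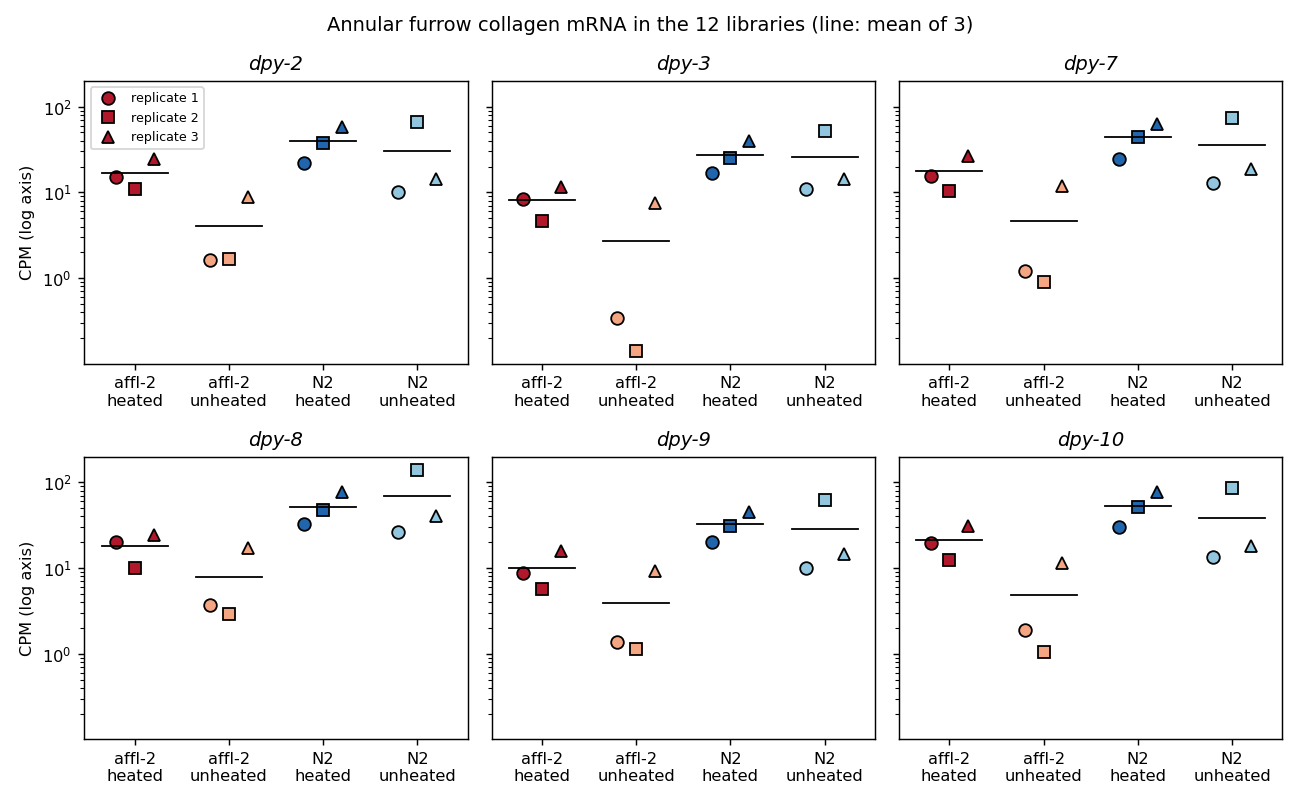
Level of each furrow collagen (CPM, log axis) in the 12 libraries, with symbols for the replicates and a line for the mean of 3. In each panel unheated affl-2 replicates 1 and 2 are the lowest points, and unheated N2 replicate 2 is the highest.

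dpy-2 and dpy-10, the neighbours on chromosome II, followed the same course. dpy-2 stood at 15.2, 10.95 and 24.4 CPM in heated affl-2 and 1.65, 1.66 and 8.94 CPM in unheated affl-2, beside 22.1, 38.2 and 58.6 CPM in heated N2 and 10.2, 66.15 and 14.4 CPM in unheated N2. dpy-10, the gene commonly used as a co-conversion marker in worm genome editing, stood at 19.6, 12.5 and 30.9 CPM in heated affl-2 and 1.89, 1.04 and 11.6 CPM in unheated affl-2, beside 30.4, 51.6 and 78.1 CPM in heated N2 and 13.4, 84.85 and 18.3 CPM in unheated N2. dpy-9 had 8.76, 5.65 and 15.85 CPM in heated affl-2 and 1.36, 1.14 and 9.23 CPM in unheated affl-2, against 20.3, 31.4 and 45.6 CPM in heated N2 and 10.2, 61.8 and 14.4 CPM in unheated N2. For these genes too, the first 2 unheated mutant libraries lay below the other 10, and replicate 3 lay below all 3 unheated N2 libraries but close to the lowest of them.

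By group mean, 5 of the 6 genes had the order heated N2, unheated N2, heated affl-2 and unheated affl-2 (high to low). The exception was dpy-8, with 52.2 ± 22.3 CPM in heated N2 and 69.2 ± 62.5 CPM in unheated N2 (SD, n = 3 each). Neighbours in that order mostly overlapped: the libraries of heated and unheated N2 did so for all 6 genes, and those of heated affl-2 and unheated N2 for all but dpy-8. The libraries of heated and unheated affl-2 overlapped for dpy-3, dpy-7, dpy-8 and dpy-9 but not for dpy-2 and dpy-10. Summed over the 6 genes on the TPM scale, which corrects for transcript length, the level was 73.4, 52.1 and 107.8 TPM in heated affl-2 and 9.91, 7.06 and 64.7 TPM in unheated affl-2, against 114.8, 192.3 and 254.2 TPM in heated N2 and 69.3, 421.6 and 95.5 TPM in unheated N2. As a ratio of the highest to the lowest library, the sum was more scattered within unheated affl-2, and within unheated N2, than within either heated group.

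The scatter within groups was among the largest of the study. The pooled within-group SD of log2 CPM was 1.096 for dpy-2, 1.60 for dpy-3, 1.29 for dpy-7, 1.04 for dpy-8, 1.17 for dpy-9 and 1.23 for dpy-10, against a median of 0.21 over all genes tested. Only 18 of the 15386 genes (0.117%) had a larger SD than dpy-3, and 101 (0.656%) had a larger SD than dpy-8, the least scattered of the 6. Between the highest and lowest library of a group, the 6 genes differed by 2.23- to 2.81-fold in heated affl-2, by 2.25- to 2.66-fold in heated N2 and by 4.76- to 6.49-fold in unheated N2. In unheated affl-2 the same ratio was 5.42 for dpy-2, 5.85 for dpy-8, 8.12 for dpy-9, 11.1 for dpy-10 and 13.1 for dpy-7, and none is given for dpy-3 because of its 3 counts. Over the whole study the highest library exceeded the lowest by 40.1-fold for dpy-2, 47.99-fold for dpy-8, 54.4-fold for dpy-9, 81.4-fold for dpy-10 and 82.9-fold for dpy-7.

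The order of the libraries was shared. In heated affl-2, heated N2 and unheated N2 all 6 genes ranked the 3 libraries in the same order, and in unheated affl-2 5 of the 6 did, dpy-2 being the exception with 1.65 and 1.66 CPM in its lowest libraries. Deviations from the group means in log2 CPM gave Pearson coefficients of 0.909 (dpy-2 with dpy-3) to 0.993 over the 15 pairs of genes (median 0.979, 12 libraries), and Spearman coefficients of 0.902 to 0.993. Without the 2 libraries that lay farthest from their group means (unheated N2 replicate 2 and unheated affl-2 replicate 3), the Pearson coefficients were 0.855 to 0.988. These coefficients describe 12 libraries that share their depth and scaling between the genes compared, and they carry no test.

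Whether the mutation changed the unheated level is the first comparison of the design, and here the furrow collagens differed most. All 6 were lower in unheated affl-2 than in unheated N2, with log2 changes of −2.88 to −3.27 and a median of −2.97, against a median of −0.002 over all genes tested. dpy-8 passed the test at −3.12 ± 0.87 (SE, adjusted p = 0.045), which was 1 of the 6, and 7.29% of all genes tested passed in that direction (6.69% passed higher and 14% in either direction). The other 5 did not pass, at −2.89 ± 0.92 for dpy-2 (adjusted p = 0.0736), −3.004 ± 1.00 for dpy-10 (0.0827), −2.88 ± 0.96 for dpy-9 (0.0837), −3.27 ± 1.099 for dpy-3 (0.0856) and −2.94 ± 1.02 for dpy-7 (0.0947), all 5 with an unadjusted p below 0.05 from the same test. In CPM the unheated groups did not overlap for any of the 6 genes, a pattern that 15.6% of all genes showed in that direction. In CPM without TMM they did not overlap for 5 genes, and in TPM for 2, since mutant replicate 3 came close to the lowest N2 library. The share of all genes without overlap was worked out for TMM-scaled CPM only, so these counts have no share to stand beside.

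**Figure D2:**
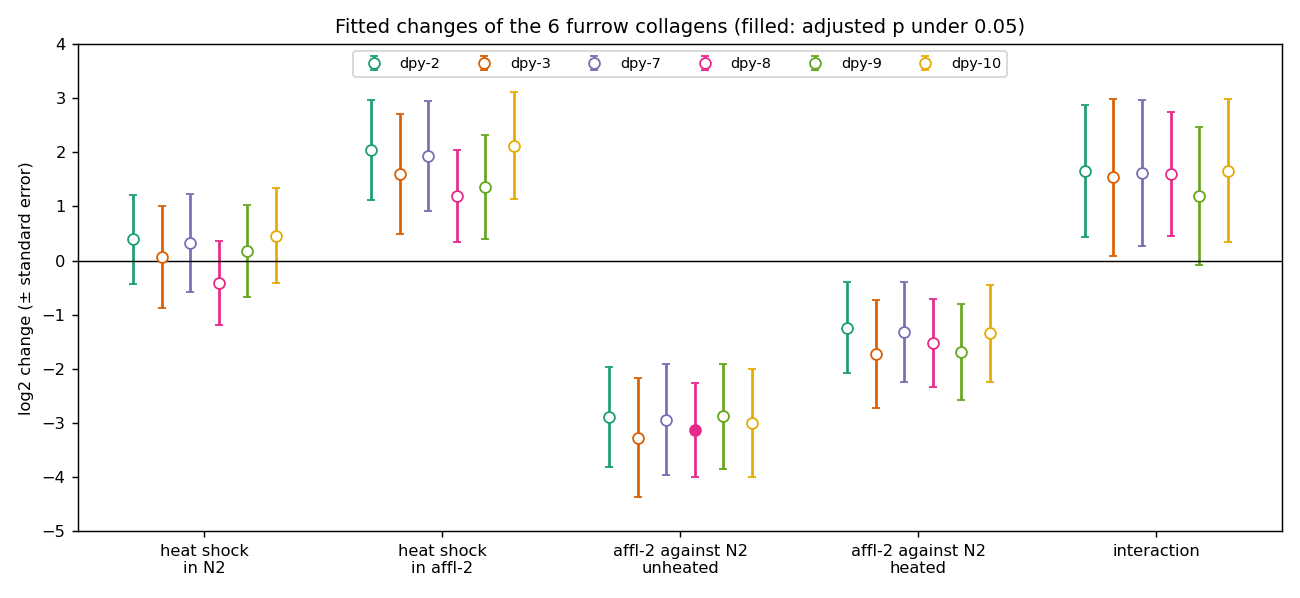
Fitted log2 change of each furrow collagen in the 5 comparisons, with bars of 1 standard error and filled points for an adjusted p below 0.05 in edgeR's quasi-likelihood test. The one filled point is dpy-8 in unheated affl-2 against unheated N2, and in that comparison all 6 genes lie between −2.88 and −3.27.

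That comparison turned on single libraries. Without unheated affl-2 replicate 3, whose furrow collagen level was the highest of its group, all 6 genes passed, with log2 changes of −4.13 for dpy-2, −4.33 for dpy-8, −4.47 for dpy-9, −4.67 for dpy-10, −5.01 for dpy-7 and −6.67 for dpy-3, the last resting on 7 and 3 counts in the mutant. Without unheated N2 replicate 2, the library with the highest levels of all, the changes shrank to between −1.59 (dpy-2) and −2.24 (dpy-3), and none passed. The call of dpy-8 was kept in the fit without unheated affl-2 replicate 3 (adjusted p = 0.0111) and in that without unheated N2 replicate 1 (0.0381), and it was lost in the other 10 of the 12 fits that left out 1 library, with adjusted p up to 0.13. It was also lost without the low-count filter (adjusted p = 0.0686), with the title numbers as a block (0.0558) and in a fit of the unheated libraries alone (0.18). DESeq2 called all 6 lower (adjusted p 0.00221 for dpy-8 to 0.0409 for dpy-3). Leaving out both low mutant libraries, replicates 1 and 2, an alternative chosen after seeing the data, gave −2.0 for dpy-8 (adjusted p = 0.414), and none of the 6 passed. That fit holds 1 unheated mutant library, the one with the highest levels, which is assumed to vary like the other groups, so the smaller change follows from which libraries were removed.

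**Figure D3:**
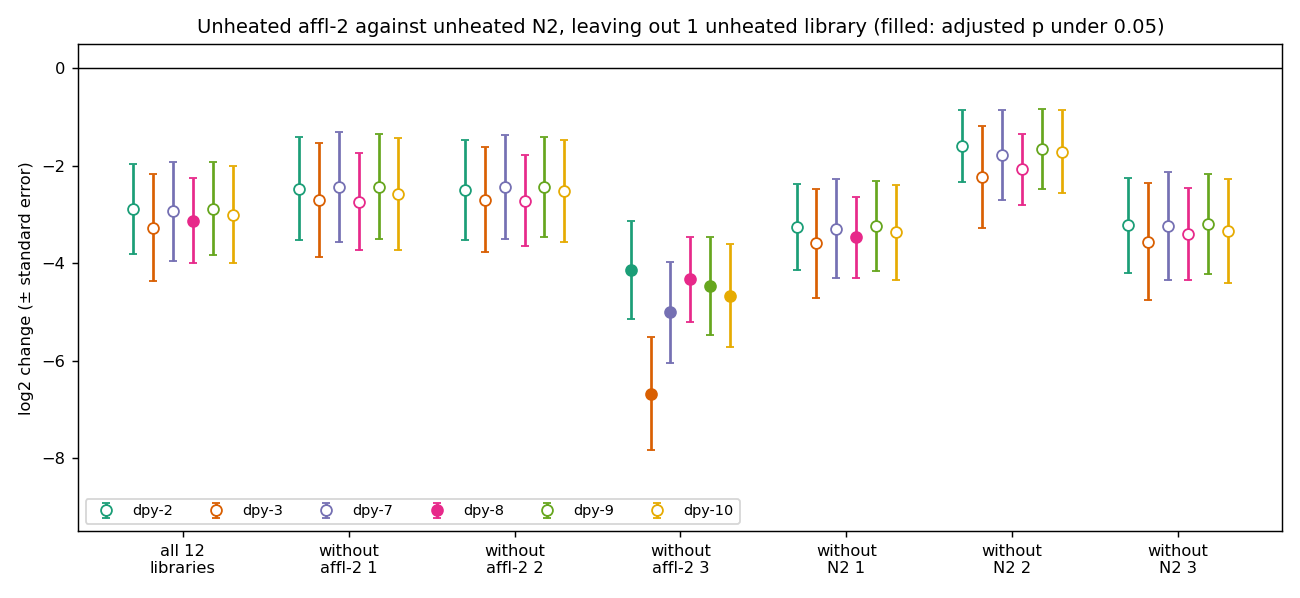
Log2 change of each furrow collagen in unheated affl-2 against unheated N2, for all 12 libraries and with 1 unheated library left out in turn (bars, 1 standard error; filled points, adjusted p below 0.05). The changes run from −1.59 without N2 replicate 2 to −6.67 without affl-2 replicate 3.

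Markers of other tissues were set beside this comparison. Of the 11 epidermal structure genes, which include the junction genes ajm-1 and dlg-1 and the attachment gene vab-10, vha-5 was higher and none was lower in unheated affl-2, with a summed level of 2582 to 3038 CPM in unheated affl-2 and 2443 to 2799 CPM in unheated N2. Of the 4 germline markers, him-3, pgl-1 and glh-1 were lower (summed level 1027 to 1305 CPM in unheated affl-2, against 1550 to 1628 CPM in unheated N2), and none of the muscle, intestine, neuron or pharynx markers passed. Leaving out 1 library, 1 to 3 of the germline markers were lower, the 1 without unheated N2 replicate 1 or 3 or unheated affl-2 replicate 2 or 3. No marker of these lists was at 0 in all libraries. Neither of the adult cuticle collagens listed, col-7 and col-19, passed (summed level 837.4 to 1225 CPM in unheated affl-2, against 1123 to 1471 CPM in unheated N2). Of these, col-19 stood at 617.7 to 888.6 CPM in unheated affl-2 and 864.9 to 1132 CPM in unheated N2. The parts of germline content and of epidermal content in the collagen levels were not tested.

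After heat shock the furrow collagens again lay lower in affl-2 than in N2, with log2 changes of −1.24 to −1.73 (median −1.43, against 0.038 over all genes). None of the 6 passed edgeR's quasi-likelihood test with Benjamini-Hochberg adjustment (adjusted p 0.203 to 0.329), and none had an unadjusted p below 0.05, where 9.57% of all genes were called lower and 19.7% were called in either direction. dpy-3 (−1.73 ± 0.99), dpy-9 (−1.69 ± 0.89) and dpy-8 (−1.52 ± 0.81) had no overlap between the heated groups, as 17.6% of all genes did in that direction. dpy-2, dpy-7 and dpy-10 overlapped, as heated affl-2 replicate 3 lay above heated N2 replicate 1. In a fit of the 6 heated libraries alone, where the spread of the unheated libraries no longer entered, all 6 passed (adjusted p 0.00812 to 0.0335) with changes of −1.25 to −1.75. Of the markers, pgl-1 and glh-1 of the 4 germline genes were lower in heated affl-2 (summed level 1046 to 1477 CPM, against 1615 to 1868 CPM in heated N2), as were ifb-1 and lin-26 of the 11 epidermal genes (2978 to 3818 CPM in heated affl-2, against 3411 to 3631 CPM in heated N2) and myo-2 of the 3 pharynx genes, and their part was not tested. The adult cuticle collagens col-7 and col-19 were both lower in heated affl-2 (summed level 587.1 to 1105 CPM, against 1312 to 1416 CPM in heated N2). Leaving out 1 library, 0 to 2 of them were lower, and their part was not tested either.

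Heat shock in the mutant came with higher fitted levels of all 6 genes, and none passed. The log2 changes were 2.12 ± 0.99 for dpy-10 (adjusted p = 0.168), 2.04 ± 0.92 for dpy-2 (0.153), 1.93 ± 1.01 for dpy-7 (0.216), 1.60 ± 1.11 for dpy-3 (0.342), 1.36 ± 0.96 for dpy-9 (0.353) and 1.19 ± 0.85 for dpy-8 (0.356), by the same test. Their median was 1.77, against 0.032 over all genes, of which 21.4% were called in either direction and 10.6% higher. Without unheated affl-2 replicate 3 the rise passed for dpy-2 (3.31), dpy-10 (3.81), dpy-7 (4.03) and dpy-3 (5.03). dpy-2 and dpy-10 had no overlap between heated and unheated affl-2, as 18% of all genes did in that direction. The 4 muscle markers rose with heat in affl-2 (summed level 9847 to 13820 CPM in heated affl-2, 6397 to 7139 CPM in unheated affl-2), as did 2 of the 3 pharynx genes (945.7 to 1077 CPM in heated affl-2, 713.7 to 765.3 CPM in unheated affl-2) and dlg-1 and vab-10 of the 11 epidermal genes (2978 to 3818 CPM in heated affl-2, 2582 to 3038 CPM in unheated affl-2). In the same comparison the epidermal factor gene lin-26 fell by 0.98. Of the 4 neuron markers, snt-1 and rab-3 fell and unc-13 rose (143.9 to 149.7 CPM in heated affl-2, 114.9 to 138.4 CPM in unheated affl-2), and elt-2 of the 4 intestine markers fell (938.9 to 1321 CPM in heated affl-2, 1140 to 1415 CPM in unheated affl-2), while no germline marker passed. The adult cuticle collagen col-7 fell with heat in affl-2 and in N2, while col-19 passed in neither. The part of these markers in the furrow collagen values was not tested.

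In N2 the furrow collagens did not pass in either direction with heat. The log2 changes lay between −0.41 ± 0.78 for dpy-8 and 0.46 ± 0.88 for dpy-10 (median 0.25, adjusted p 0.764 to 0.974 in edgeR's quasi-likelihood test), where 21.5% of all genes were called, 9.52% higher and 12% lower. None had an unadjusted p below 0.05, none was called by DESeq2, and the heated and unheated libraries overlapped for all 6, where 19.9% of all genes were higher and 21.2% lower without overlap. Standard errors ran from 0.78 to 0.94. With heat in N2 all 4 muscle markers and 2 of the 3 pharynx genes rose, 4 of the 11 epidermal genes rose and 1 fell, and 3 of the 4 neuron markers fell and 1 rose. Without unheated N2 replicate 2 the changes became 0.64 (dpy-8) to 1.75 (dpy-10), and none passed. The interaction, the log2 change with heat in the mutant less that in the wild type, was 1.19 ± 1.28 for dpy-9 to 1.66 ± 1.32 for dpy-10 and passed for none of the 6 (adjusted p 0.922 to 0.946), where 0.715% of all genes passed. A difference in heat response between the genotypes was not detectable with this spread.

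The numbers in the names of the deposited files sort the libraries into 3 sets with 1 library of each group, in which unheated affl-2 replicate 2 falls in set 1 and replicate 1 in set 2. Within each of the 3 sets, all 6 genes were lower in unheated affl-2 than in unheated N2 (log2 ratios of CPM from −7.28 to −0.64) and lower in heated affl-2 than in heated N2 (−2.48 to −0.54). They were higher in heated than in unheated affl-2 in every set as well (0.50 to 5.89). Where 2 groups did not overlap in CPM, every sorting into sets gives the same sign, so the sets add no support there. That held for all 6 genes between the unheated groups and for dpy-3, dpy-8 and dpy-9 between the heated ones. It also held for dpy-2 and dpy-10 between heated and unheated affl-2. The 6 genes scattered together, so their agreement is not 6 separate results. In N2 all 6 were higher after heat in set 1 and set 3 and lower in set 2, the set of the high unheated library (−1.56 to 2.09 over the 18 values). With these sets as a block in the fit, dpy-8 again passed in the unheated comparison (−3.22, adjusted p = 0.0484), and no call of the 6 genes changed, although the genes passing overall increased to 3604 (unheated affl-2 against N2), 5155 (heated affl-2 against N2) and 221 (interaction), against 2150, 3034 and 110 without the block.

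Although the 6 genes moved together, the share each held of their summed TPM was not fixed. dpy-8 held 18.7, 14.9 and 14.8% in heated affl-2, against 30.9, 32.2 and 20.6% in unheated affl-2. In N2 it held 17.5, 16.1 and 17.04% in the heated libraries, against 25.2, 23.8 and 27.2% in the unheated ones. Its share was thus lower in every heated library than in any unheated one, averaging 16.1% in heated and 27.9% in unheated affl-2, and 16.9% in heated and 25.4% in unheated N2. dpy-10 held 16.8, 16.9 and 17.4% in heated affl-2, against 14.6, 10.4 and 12.8% in unheated affl-2. In N2 it held 15.1, 15.9 and 16.1% in the heated libraries, against 11.7, 13.2 and 11.3% in the unheated ones. Its share was thus higher after heat in both genotypes without overlap. The share of dpy-7 was also higher after heat without overlap, averaging 20.95% in heated and 15.4% in unheated affl-2, and 19.2% in heated and 16.9% in unheated N2. Each of these differences had an exact 2-sided permutation p of 0.1, the smallest that 3 libraries against 3 allow. After Benjamini-Hochberg adjustment over the 24 share comparisons it was 0.185, so none passed. The shares within a library have a fixed sum, so a lower share of dpy-8 goes with higher shares among the other genes. The rises of dpy-10 and dpy-7 are therefore not results separate from the fall of dpy-8, and the 24 comparisons are tied. In unheated affl-2 the shares also depend on dpy-3, which had only 7 and 3 counts in its lowest libraries.

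**Figure D4:**
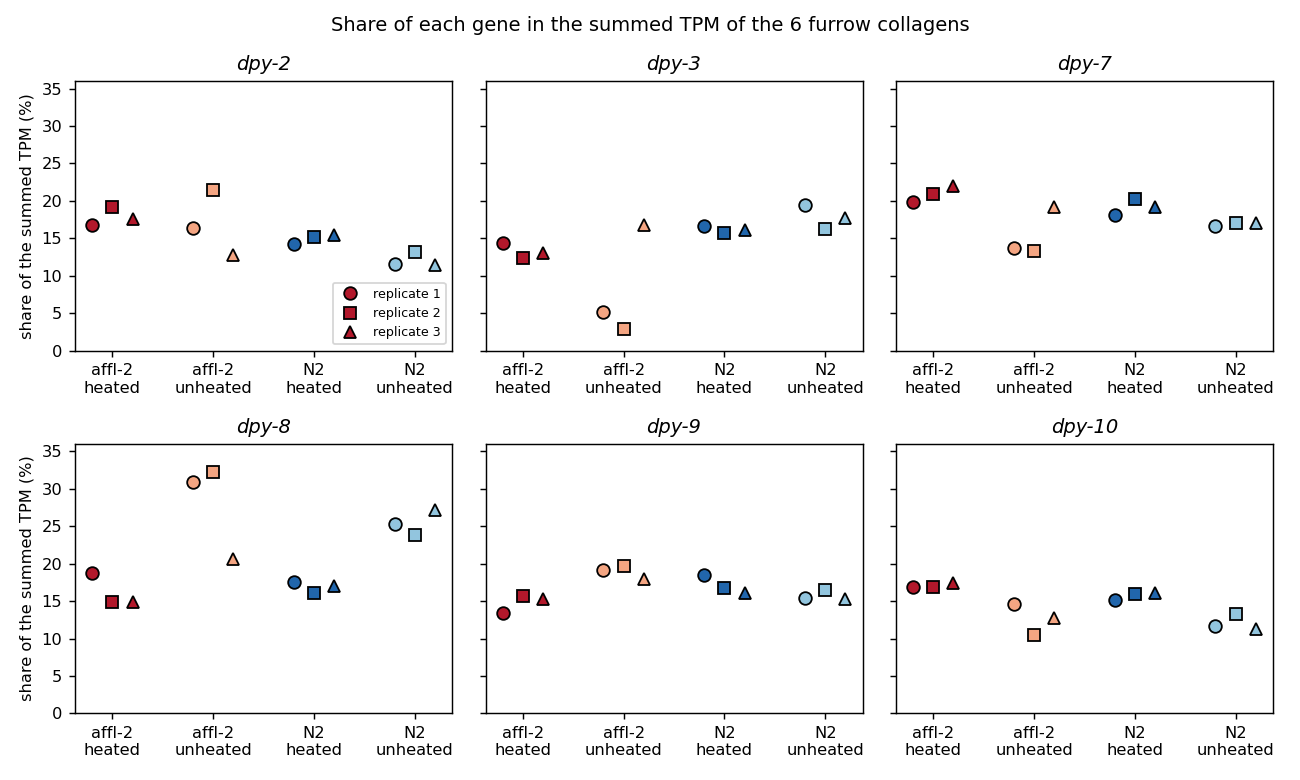
Share of each furrow collagen in the summed TPM of the 6 (percent), by library. dpy-8 lies at 14.8 to 18.7% in the heated libraries and at 20.6 to 32.2% in the unheated ones, and dpy-3 falls to 5.22 and 2.86% in unheated affl-2 replicates 1 and 2.

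Within unheated affl-2 the shares differed between libraries. In unheated affl-2 replicates 1 and 2, where the sum was 9.91 and 7.06 TPM, dpy-3 held 5.22 and 2.86% and dpy-8 30.9 and 32.2%, whereas in replicate 3, with a sum of 64.7 TPM, dpy-3 held 16.8% and dpy-8 20.6%. In unheated N2, by contrast, the library with a sum of 421.6 TPM had shares close to those of the other 2, with dpy-3 at 16.3% against 19.4 and 17.8%, and dpy-8 at 23.8% against 25.2 and 27.2%. Between genotypes after heat, dpy-2 held a larger share in affl-2 (mean 17.8% in heated affl-2, 15.0% in heated N2) dpy-3 a smaller one (13.3% in heated affl-2, 16.2% in heated N2), dpy-10 a larger one (17.03% in heated affl-2, 15.71% in heated N2) and dpy-9 a smaller one (14.79% in heated affl-2, 17.09% in heated N2), all 4 without overlap and with the same exact permutation p of 0.1. The share of dpy-9 also averaged 14.79% in heated and 18.92% in unheated affl-2, and 18.92% in unheated affl-2 against 15.71% in unheated N2, and that of dpy-2 averaged 14.98% in heated and 12.08% in unheated N2, again without overlap and at the same p. These share differences are likewise tied through the fixed sum and are not separate results. Over the 12 libraries the share of dpy-9 lay between 13.4 and 19.7%.

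The genes whose scatter within groups was most like that of the furrow collagens were found from deviations of log2 CPM from group means over the 12 libraries, correlated with the mean of the 6 genes. The 10 nearest were ptr-10 (0.995), M03B6.3 (0.994), Y64H9A.2 (0.989), fkb-7 (0.986), C15F1.2 (0.982), lpr-5 (0.981), cdh-7 (0.981), Y73E7A.8 (0.979), lpr-4 (0.979) and cdh-10 (0.979), with Spearman coefficients of 0.944 to 0.993. ptr-10 encodes a patched-related protein, fkb-7 a peptidyl-prolyl isomerase of the FKBP family, lpr-4 and lpr-5 lipocalin-related proteins and cdh-7 and cdh-10 cadherins. M03B6.3 had 8.22, 3.91 and 10.2 CPM in heated affl-2 and 0.63, 0.43 and 4.45 CPM in unheated affl-2, against 10.8, 14.5 and 23.3 CPM in heated N2 and 4.83, 30.9 and 7.78 CPM in unheated N2. Its libraries stood in the same order as those of dpy-7 in each group. That order largely follows from the choice of M03B6.3 for its likeness, so it is no further result. Of the 10 genes, 3 were still among the nearest when group means were not subtracted, and 5 when unheated affl-2 replicate 3 was left out. Coefficients above 0.8 were found for 477 of the 15386 genes, whose median was −0.003.

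**Figure D5:**
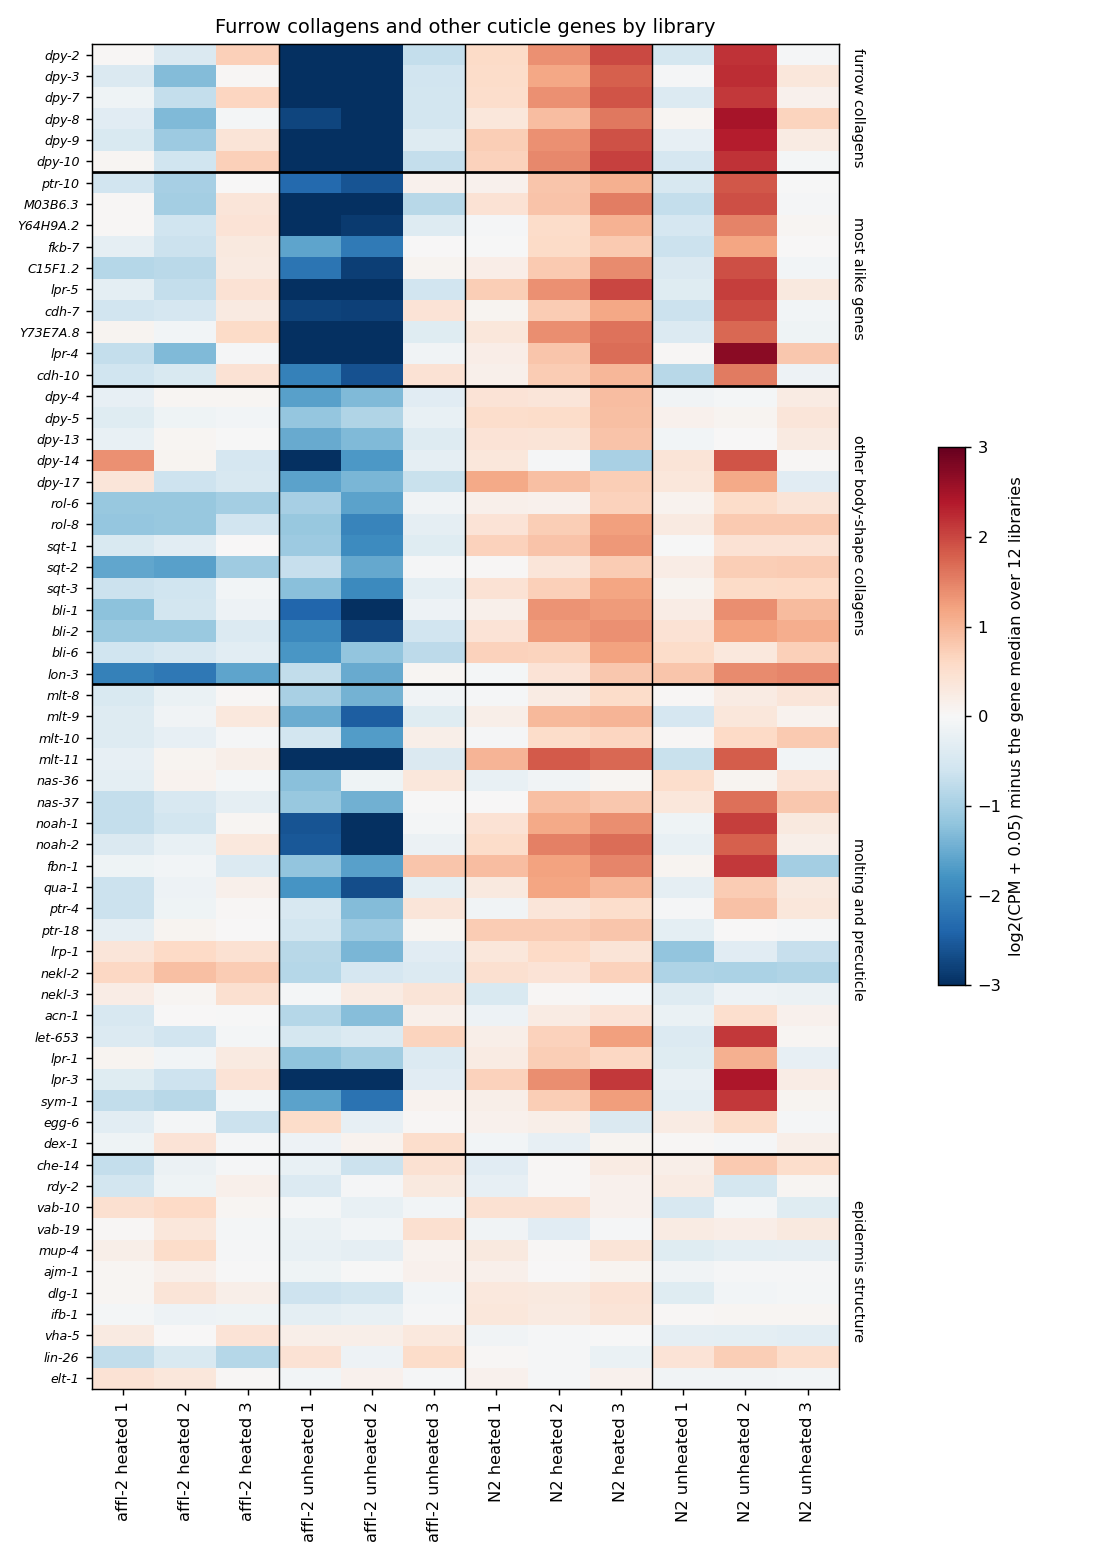
Log2(CPM + 0.05) minus the gene's median over the 12 libraries (columns) for the furrow collagens, the 10 most alike genes and 3 lists of cuticle and epidermal genes. Colours stop at −3 and 3. The furrow collagens and the 10 most alike genes share the dark blue of unheated affl-2 replicates 1 and 2. They also share the dark red of unheated N2 replicate 2, and these colours fade in the epidermal structure genes. By summed level of the other body-shape collagens, unheated N2 replicate 2 did not stand out (7786 CPM, against 6803 and 8777 CPM in replicates 1 and 3).

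Other genes of cuticle building shared the scatter to different degrees. Among the 22 genes of molting and the precuticle, the temporary matrix laid down before each new cuticle, the median coefficient was 0.862 and 14 were above 0.8, the highest being noah-1 (0.977), a zona pellucida domain protein of that matrix. noah-1 stood at 34.1, 38.6 and 59.0 CPM in heated affl-2 and 9.26, 5.45 and 53.8 CPM in unheated affl-2, against 76.1, 124.8 and 148.1 CPM in heated N2 and 51.8, 237.2 and 69.3 CPM in unheated N2. The 14 other body-shape collagens (dpy, rol, sqt, bli and lon genes that are not furrow collagens) had a median of 0.825, between 0.436 for bli-6 and 0.879 for bli-2. Of the 11 regulators of the molting cycle, myrf-1, a membrane-bound transcription factor, had 0.941 and nhr-23, a nuclear receptor of the molting cycle, 0.149 (median 0.67). Genes of collagen processing, such as the prolyl hydroxylase dpy-18, had a median of 0.52, epidermal structure genes 0.432, and the adult cuticle collagens col-7 and col-19 −0.491 and −0.369. The likeness was not confined to cuticle genes: the 4 neuron markers had a median of 0.596, with rab-3 at 0.876. Medians of the other marker lists were 0.437 for pharynx, 0.264 for muscle, 0.182 for intestine and −0.238 for germline.

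Most of the other body-shape collagens passed between the genotypes. In unheated affl-2, 12 of the 14 were lower than in unheated N2 and none was higher (median −1.51), among them bli-6 (−1.71 ± 0.22, adjusted p = 0.000321), lon-3 (−1.87 ± 0.37, 0.00882), dpy-5 (−0.91 ± 0.20, 0.00915) and dpy-17 (−1.69 ± 0.39, 0.0119). These counts stand beside 7.29% of all genes called lower without heat and 9.57% after it. In heated affl-2, 10 of the 14 were lower than in heated N2 and none was higher (median −1.28), with lon-3 at −2.32 ± 0.38, sqt-2 at −1.83 ± 0.35, rol-6 at −1.44 ± 0.31 and bli-6 at −1.35 ± 0.21. With heat in affl-2, dpy-13 (0.93), dpy-4 (0.95) and bli-6 (0.72) rose and lon-3 fell by 1.30, and with heat in N2 none of the 14 passed. Of all genes, 21.4% were called with heat in affl-2 and 21.5% in N2, in either direction. With the file-name sets as a block, 6 rose and 2 fell with heat in affl-2, and 2 rose and 1 fell in N2. With heat in affl-2 none rose without unheated affl-2 replicate 1 or 2, without heated affl-2 replicate 2 or 3 or in a fit of the affl-2 libraries alone, and 9 rose without unheated affl-2 replicate 3. With heat in N2, 4 rose and 1 fell without that same library. lon-3, whose loss gives long rather than dumpy worms, stood at 20.0 to 29.6 CPM in heated affl-2 and 30.7 to 91.3 CPM in unheated affl-2, against 84.8 to 153.0 CPM in heated N2 and 157.7 to 243.8 CPM in unheated N2. The unheated count was 6 of 14 without unheated N2 replicate 2, 4 without its replicate 3, 5 without either of the low mutant libraries, 2 in a fit of the unheated libraries alone and 6 without the low-count filter. Leaving out unheated affl-2 replicates 1 and 2 together, chosen after seeing the data, moved the unheated median of the 14 to −0.798. That fit holds 1 unheated mutant library. The heated count was 5 without heated affl-2 replicate 1, and 6 without heated affl-2 replicate 2 or 3 or without heated N2 replicate 2 or 3. Standard errors in the unheated comparison were 0.20 to 0.39 for the 4 genes named, against 0.87 to 1.099 for the furrow collagens. The 4 were named for the smallest adjusted p of the 14, a choice that favours small standard errors.

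Genes that process collagens and genes of the molt were called less evenly. Their counts stand beside 7.29% of all genes called lower and 6.69% higher in unheated affl-2 against N2. In heated affl-2 against N2 the shares were 9.57% lower and 10.1% higher. With heat, 21.5% of all genes were called in N2 and 21.4% in affl-2, in either direction. Of the 13 processing genes, dpy-18 (−1.08) and its partner pdi-2, a protein disulfide isomerase (−0.72), were lower in unheated affl-2, and both were lower in heated affl-2 together with tsp-15, while bli-3, the dual oxidase that cross-links collagen, was higher. The dual oxidase maturation factor doxa-1 fell by 0.85 with heat in N2 and by 1.02 in affl-2. Of the 22 molting and precuticle genes, nas-37 (−1.77 ± 0.43), a protease that opens the old cuticle, lpr-1 (−1.17 ± 0.35) and mlt-8 (−0.95 ± 0.28) were lower in unheated affl-2 (list median −1.01), and ptr-18 was lower in heated affl-2. The unheated count of 3 became 0 without unheated N2 replicate 2, without unheated affl-2 replicate 1 or 2 or in a fit of the unheated libraries alone, 1 without heated N2 replicate 2 or 3 or any of the heated affl-2 libraries, and 15 without unheated affl-2 replicate 3. With the file-name sets as a block, 5 were lower and 2 higher. The call of ptr-18 was lost without heated affl-2 replicate 1 or 3, while 12 of the 22 were lower in a fit of the heated libraries alone. With heat, nekl-2 and lrp-1, a kinase and an endocytic receptor needed for molting, rose in both genotypes, and ptr-18 rose in N2. Of the 11 regulators of the molting cycle, grh-1 rose with heat (1.24 in N2 and 1.39 in affl-2), nhr-85 and lin-29 fell in both genotypes, nhr-25 fell in N2 and elt-3 in affl-2, and none passed between the genotypes with or without heat. Leaving out 1 library, 0 to 3 processing genes were lower in heated affl-2 and 1 to 3 in unheated affl-2, and up to 4 molting regulators were lower in unheated affl-2, the 4 without unheated affl-2 replicate 3. Without that library 12 of the molting and precuticle genes rose with heat in affl-2.

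Loss of furrows is known to switch on osmotic, detoxification and antimicrobial genes in the epidermis, so a list of these was examined beside the furrow collagens. Of the 15 genes, nlp-34, cnc-1 and cnc-5 had no counts in any library and 12 were tested. gpdh-1, which makes glycerol under osmotic stress, stood at 11.5, 10.4 and 15.3 CPM in heated affl-2 and 9.89, 11.7 and 12.96 CPM in unheated affl-2, against 80.1, 73.3 and 85.1 CPM in heated N2 and 49.0, 34.2 and 39.3 CPM in unheated N2. It was lower in every mutant library than in any N2 library, by −1.83 ± 0.17 without heat (adjusted p = 2.01e-05) and −2.68 ± 0.17 after it (adjusted p = 1.53e-07). The detoxification gene gst-4 was lower too (−0.93 ± 0.15 without heat and −1.48 ± 0.16 after it), as was the osmolyte transporter gene hmit-1.1 (−0.81 ± 0.16 and −0.88 ± 0.16). The antimicrobial peptide gene nlp-29 was higher in affl-2 (0.64 ± 0.18 without heat, adjusted p = 0.0274, and 0.79 ± 0.18 after it, adjusted p = 0.00714). Thus 3 of the 12 were lower and 1 higher in the mutant under either condition, beside 7.29% lower and 6.69% higher over all genes without heat and 9.57% lower and 10.1% higher after it. The unheated call of nlp-29 was lost without unheated N2 replicate 1, 2 or 3 or without unheated affl-2 replicate 3. Their likeness coefficients to the furrow collagens had a median of 0.28, with none above 0.8.

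With heat, gpdh-1 (0.96) and the caenacin gene cnc-4 (2.74) rose in N2, and in affl-2 cnc-4 (1.88), cnc-2 (1.49) and nlp-29 (0.54) rose and gst-4 fell by 0.60. Of the 11 regulators of these responses, osm-11, a secreted protein whose loss switches on osmotic genes, was lower in affl-2 without heat (−0.68 ± 0.14) and after it (−1.34 ± 0.14), and rose with heat in N2 (0.95). snf-12, sta-2 and dcar-1, which act in the epidermal antimicrobial response, were higher in unheated affl-2, and dcar-1 and osm-7 were higher in heated affl-2. Heat raised 4 of these regulators and lowered 2 in N2, and raised 1 and lowered 2 in affl-2, where 21.5% and 21.4% of all genes were called in either direction. No gene of any list passed the interaction test in the fit of all 12 libraries without a block. With the file-name sets as a block, gpdh-1 (−0.87, adjusted p = 0.0122) and osm-11 (−0.65, adjusted p = 0.0307) passed, as they did in DESeq2 (adjusted p = 0.0267 for gpdh-1 and 0.0498 for osm-11), and lin-42 passed (1.29) without unheated affl-2 replicate 3.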

How the data were processed

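The authors deposited 1 table per library with estimated counts and TPM (length-scaled transcript abundance) for 35862 transcripts, made with kallisto on build WBcel235 from bases converted with bcl2fastq 1.8.4, per the submitters' processing notes, which name no kallisto version. Per the labels' protocols, poly(A) RNA was read as single 50 nt reads with a kit that does not mark strand. Here the deposited estimated counts were summed per gene and rounded, and the deposited TPM were summed per gene, to set genes beside each other. Of the 22010 genes, 21842 matched the annotation by sequence name. Tests were run in edgeR 4.0.16 (R 4.3.3) after filterByExpr (minimum count 10, 15386 genes kept) and TMM scaling (factors 0.847 to 1.15). A robust quasi-likelihood model held the 4 group means of all 12 libraries, leaving 8 residual degrees of freedom, with a common BCV (relative spread between replicates) of 0.147 and Benjamini-Hochberg adjustment over all genes tested. Log2 CPM used a prior count of 1. The standard errors given with log2 changes were derived from the test, as the absolute log2 change divided by the square root of its F statistic. They are thus approximate. DESeq2 1.42.0, other scalings, no filter, length offsets, replicate blocks, fits of the compared libraries alone and leaving out each library were alternatives, and the fit was tested on simulated data. No sequence was used here, so the promoter motif search planned at the start was not run.

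The members and gene lists were chosen with earlier results of these data known. The naming rule took the 6 members, the 10 genes of highest likeness with an average log2 CPM of at least 1, affl-2, and up to 4 members of each other list with the smallest adjusted p among those that passed in a comparison. List genes named with likeness coefficients, lon-3, noah-1 and M03B6.3 levels, and lin-42, were picked after their values were seen. Same-numbered libraries were checked for shared deviations from group means. With title numbers 13 of 18 pairs correlated above 0.1 (−0.317 to 0.324, median 0.1395). With the library numbers in the file names, which exchange unheated affl-2 replicates 1 and 2, 18 of 18 did (0.106 to 0.324, median 0.202). The labels name no pairing, the coefficients are low, and most pairs are the same in both numberings. Both numberings were used as blocks in alternative fits, and neither is established as a pairing of the libraries.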

Additional observations from a re-analysis of the deposited data

How the results depend on the processing

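The unheated difference of the furrow collagens kept its sign in every fit, but how many of the 6 passed did not hold: 0 without the low-count filter, with the title-number replicate block, in a fit of the compared libraries alone or without unheated affl-2 replicates 1 and 2 (an alternative chosen after seeing the data, which leaves 1 library in that group, assumed to vary like the others), 6 with DESeq2, and 0 to 6 when leaving out 1 library. In heated affl-2 against N2, 6 passed with the compared libraries alone. With heat in affl-2, leaving out 1 library gave 0 to 4.

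Small changes turned sign. With heat in N2, dpy-3 was −0.134 by library size alone and −0.009 with the title-number block, and dpy-9 was −0.026 by library size alone. Leaving out 1 library, the heat changes in N2 ran between −0.004 and 1.69 (dpy-2), −0.302 and 1.095 (dpy-3), −0.051 and 1.479 (dpy-7), −0.786 and 0.644 (dpy-8), and −0.204 and 1.40 (dpy-9). The interaction of dpy-9 ran between −0.036 and 2.778, and was −0.053 without unheated affl-2 replicates 1 and 2. The causes were not tested.

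Of all genes, 2150 passed in unheated affl-2 against N2, 3386 by library size alone (2737 higher, 649 lower), 3604 with the file-number replicate block, 460 without the 2 low mutant libraries (1 library left) and 1220 to 2550 leaving out 1 library. In heated affl-2 against N2 the numbers were 3034, 5699 by library size alone, 5155 with the block and 1475 to 3897. With heat in affl-2, 3300 passed, and 1612 without the 2 low libraries. For the interaction, 110 passed, 221 with the block and 216 with DESeq2. The blocks changed no call of a furrow collagen except that of dpy-8, lost with the title numbers. Of the 10 most alike genes, 3 stayed without subtracting group means and 5 to 10 leaving out 1 library. At 7 and 3 counts, the depth limits dpy-3 in unheated affl-2.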
